A study of Mus musculus with 9 samples.

Results

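The high mobility group (HMG) proteins are small, abundant chromatin proteins that are not histones. Hmgb1, Hmgb2, Hmgb3, Hmga1, Hmga2, Hmgn1, Hmgn2, Hmgn3 and Hmgn5 were chosen by gene symbol, which gave 9 of the 24062 genes in the count table and 9 of the 14572 genes that were tested. All 9 passed the filter on low counts. They were measured by RNA sequencing in mouse embryonic fibroblasts (MEFs, primary connective tissue cells grown from embryos) of the C57BL/6 strain. A lentivirus made the cells overexpress p21, or overexpress p16, or carried the empty vector as control, and RNA was taken after 10 days. p21 and p16 are inhibitors of cyclin-dependent kinases and arrest the cell cycle. Each of the 3 groups had 3 libraries.

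The labels leave several properties of these groups unstated. Control cells are titled as empty vector, yet their cell status is given as senescent. The p16 samples carry a strain and the tissue embryo but no cell status. If the p16 cells were also handled apart, that cannot be told apart from p16. Whether the vectors hold mouse sequence is not stated. Separate embryos or cultures are not named for the replicates, and the p-values measure how far these libraries spread. In bulk RNA, fewer cells of a type and less RNA per cell cannot be told apart. Cdkn1a, which encodes p21, had 1130 ± 76.4 CPM in p21 cells, 419.5 ± 22.3 CPM in p16 cells and 366.2 ± 43.6 CPM in control cells (CPM, counts per 1 M after scaling; mean ± SD, n = 3). Cdkn2a, which encodes p16 and p19Arf, had 95.58 ± 16.7, 1017 ± 64.6 and 63.08 ± 5.03 CPM in the p21, p16 and control cells. Library totals were 56.9 to 76.1 M counts. In sex-linked genes replicate 3 stood apart from replicates 1 and 2 in every group. Xist, which silences an X chromosome in female cells, had at most 1.34 CPM in replicates 1 and 2. It had 158, 262 and 397 CPM in p21, p16 and control replicate 3. The Y-linked gene Ddx3y had 10.8, 1.26 and 1.1 CPM in those 3 libraries and at least 50.1 CPM in the others, so p21 replicate 3 lay between the rest, as it did for Uty (3.62), Kdm5d (4.15) and Eif2s3y (6.97 CPM). These sex-linked values set replicate 3 apart in source. Whether replicates 1 and 2 differ in source is not stated, so their spread may be technical. Over all genes, the chi-square per degree of freedom between libraries was lowest for replicates 1 and 2 in p21 (13.81) and p16 cells (10.37). In control cells it was 42.52 for replicates 1 and 2, 25.72 for 2 and 3 and 101.2 for 1 and 3. Of 10 fibroblast markers, the collagen genes Col1a1 and Col1a2 averaged at least 8560 CPM in every group and Dcn and Lum at most 5.22 CPM in any library. In p21 against control cells Fn1, fibronectin, was higher (0.84 ± 0.118, adjusted p = 5.21e-04), Thy1 was higher (0.21 ± 0.0592, adjusted p = 0.0199, lost without p21 replicate 1 at 0.077, p21 replicate 3 at 0.0509 or control replicate 2 at 0.0532), Pdgfra was lower (-1.25 ± 0.261, adjusted p = 0.00448), and the other 7 did not pass. Of all tested genes, 19.3% were higher and 20.7% lower in this comparison.

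The HMG proteins fall into 3 families by how they meet chromatin. HMGB proteins carry a pair of HMG boxes that bend DNA, and HMGB1 also acts as an alarm signal when it leaves the cell. HMGA proteins bind the narrow groove of AT-rich DNA through AT-hooks and are known from dense heterochromatin in senescent fibroblasts, and HMGN proteins bind the nucleosome itself and oppose its compaction by linker histones. Loss of HMGB1 and HMGB2 from the nucleus is known as a feature of senescent cells.

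Hmgb1, Hmgb2, Hmgb3 and Hmgn2 passed the test in every comparison and Hmga2 in none, so the promoter windows of these genes are shown. They are RefSeq sequences of GRCm38.p6, running 250 bases before to 50 bases after the start, 5′ to 3′ on the gene's strand. Capitals mark CCAAT, the letters that nuclear factor Y binds, and TTTGAA, the letters of the cell cycle homology region, read on either strand (TTCAAA is TTTGAA on the opposite strand).
Hmgb1, chr5:149053008-149053307, minus strand: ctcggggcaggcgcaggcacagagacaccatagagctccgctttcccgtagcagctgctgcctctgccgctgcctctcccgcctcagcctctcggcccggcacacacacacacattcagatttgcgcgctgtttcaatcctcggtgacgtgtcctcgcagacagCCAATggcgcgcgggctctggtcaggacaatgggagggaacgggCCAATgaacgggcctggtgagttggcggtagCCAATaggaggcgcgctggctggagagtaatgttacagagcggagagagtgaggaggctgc
Hmgb2, chr8:57511593-57511892, plus strand: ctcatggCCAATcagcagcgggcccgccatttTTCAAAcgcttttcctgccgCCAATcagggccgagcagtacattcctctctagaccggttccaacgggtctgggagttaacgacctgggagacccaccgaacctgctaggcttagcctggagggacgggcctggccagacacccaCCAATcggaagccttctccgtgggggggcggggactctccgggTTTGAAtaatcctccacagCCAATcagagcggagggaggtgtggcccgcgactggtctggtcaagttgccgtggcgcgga
Hmgb3, chrX:71555667-71555966, plus strand: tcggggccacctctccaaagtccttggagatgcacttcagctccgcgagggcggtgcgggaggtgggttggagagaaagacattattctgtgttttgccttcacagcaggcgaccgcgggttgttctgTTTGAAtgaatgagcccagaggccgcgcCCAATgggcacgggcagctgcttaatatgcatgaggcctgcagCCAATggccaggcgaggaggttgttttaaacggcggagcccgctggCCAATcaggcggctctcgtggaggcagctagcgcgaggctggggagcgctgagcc
Hmgn2, chr4:133967942-133968241, minus strand: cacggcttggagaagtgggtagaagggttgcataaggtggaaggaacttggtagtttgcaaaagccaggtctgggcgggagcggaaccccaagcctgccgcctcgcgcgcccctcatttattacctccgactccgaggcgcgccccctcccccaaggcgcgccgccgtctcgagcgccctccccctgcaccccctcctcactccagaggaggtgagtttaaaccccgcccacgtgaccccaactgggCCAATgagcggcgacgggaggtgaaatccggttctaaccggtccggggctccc
Hmga2, chr10:120476420-120476719, minus strand: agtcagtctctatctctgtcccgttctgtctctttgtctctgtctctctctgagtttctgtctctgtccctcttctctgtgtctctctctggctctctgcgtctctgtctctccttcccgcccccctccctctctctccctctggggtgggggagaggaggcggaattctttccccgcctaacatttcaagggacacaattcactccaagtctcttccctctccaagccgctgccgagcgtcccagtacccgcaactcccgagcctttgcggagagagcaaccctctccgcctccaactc

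Of the 9 genes, 8 matched a RefSeq window and together had 10 windows. The window shown for Hmgb1 holds CCAAT 3 times, with first bases at -86, -42 and -11 counted from the start, while its second window holds none. The starts are those of RefSeq: the nearest GENCODE M21 transcript start of the same gene lies 17 bases away for the Hmgb1 window shown, 64 for Hmgb2, 1 for Hmgb3, 10 for Hmgn2 and 0 for Hmga2 and the second Hmgb1 window. The Hmgb2 window holds CCAAT 4 times and TTTGAA 2 times, on opposite strands at -218 and -30. Hmgb3 has CCAAT 3 times and TTTGAA 1 time. Hmgn1 and Hmgn5 have CCAAT 2 times each and Hmgn2 has it 1 time, at -3. The windows of Hmga1 and Hmga2 hold neither. Over all 32817 windows of the table, 37.4% hold CCAAT, 3.37% hold it 3 or more times, 17.9% hold TTTGAA and 6.94% hold both. GGGCGG, the letters of the GC box, is in 35.6% of all windows and in the windows of Hmga1 (4 times in each), Hmga2 (1), Hmgn1 (5), Hmgn2 (2), Hmgb2 (1), Hmgb3 (1) and the second window of Hmgb1 (4). Within a window no match shares letters with another. The 2 windows of Hmga1 overlap and hold the same 4 GGGCGG matches. The motifs were chosen after the sequences had been seen, and a match is a description of the letters and not a site of binding.

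All 3 HMGB genes were lower in p21 cells than in control cells, and lower in p16 cells than in control cells by a smaller amount. Hmgb1 had 209, 200 and 239 CPM in p21 cells, 310, 292 and 298 CPM in p16 cells and 408, 387 and 384 CPM in control cells. The groups did not overlap, and the p16 libraries lay between the others. Hmgb1 was 1.82-fold lower in p21 than in control cells, a log2 fold change of -0.86 ± 0.0664 (SE; adjusted p = 2.12e-05, edgeR's quasi-likelihood test with Benjamini-Hochberg adjustment over all genes tested). In p16 cells the change against control was -0.39 ± 0.066 (adjusted p = 0.0112), and it missed the threshold of 0.05 without p16 replicate 2 (adjusted p = 0.0629). p21 cells were also below p16 cells, by -0.47 ± 0.0661 (adjusted p = 0.00278).

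Hmgb2, a close relative of Hmgb1 that is abundant in dividing cells, had the lowest log2 fold change of the 9 genes in p21 against control cells, with Hmgn2 next. It had 44.0, 42.1 and 51.6 CPM in p21 cells, 70.4, 65.2 and 63.1 CPM in p16 cells and 110, 102 and 99.2 CPM in control cells, with no overlap between groups. The p21 libraries stood at 44.2% of the control level by the fitted fold change, a log2 change of -1.18 ± 0.0816 (adjusted p = 1.48e-05). The p16 libraries stood at 63.8% of control, -0.65 ± 0.0807 (adjusted p = 0.00523). Against p16 cells, Hmgb2 in p21 cells fell by 0.53 ± 0.081 on the log2 scale (adjusted p = 0.00396). These calls held in each of the 17 alternative analyses.

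Hmgb3, the X-linked member of the family, is known from stem and progenitor cells. Its values were 18.1, 18.6 and 20.3 CPM in p21 cells, 27.5, 24.6 and 25.8 CPM in p16 cells and 39.4, 36.9 and 35.5 CPM in control cells. The 3 groups again lay apart in the same order. The log2 fold changes were -0.97 ± 0.0664 for p21 against control (1.96-fold lower, adjusted p = 1.43e-05), -0.52 ± 0.0657 for p16 against control (adjusted p = 0.00523) and -0.45 ± 0.0664 for p21 against p16 (adjusted p = 0.00343). Replicate 3, which stood apart in Xist and Y-linked genes, was the highest p21 library and the lowest control library for Hmgb3. With replicates 1 and 2 alone the log2 fold changes were -1.05, -0.55 and -0.51, and all 3 passed (adjusted p = 6.32e-05, 0.0134 and 0.00605).

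Hmgb2 and Hmgb1 were also set against each other within each library. The ratio of Hmgb2 to Hmgb1 counts within a library was 0.21, 0.21 and 0.216 in p21 cells, 0.227, 0.224 and 0.212 in p16 cells and 0.27, 0.264 and 0.258 in control cells. The control ratios were above all the others, and the p21 and p16 ratios overlapped. The mean log2 ratio was lower by 0.32 in p21 than in control cells and by 0.26 in p16 than in control cells (exact permutation test, two-sided, p = 0.1 for each), and by 0.06 in p21 than in p16 cells (exact p = 0.2). With 3 libraries against 3, the smallest p this test allows is 0.1, and 6 such tests were run over this ratio and that of the HMGN pair, none of which can pass 0.05.

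**Figure D1:**
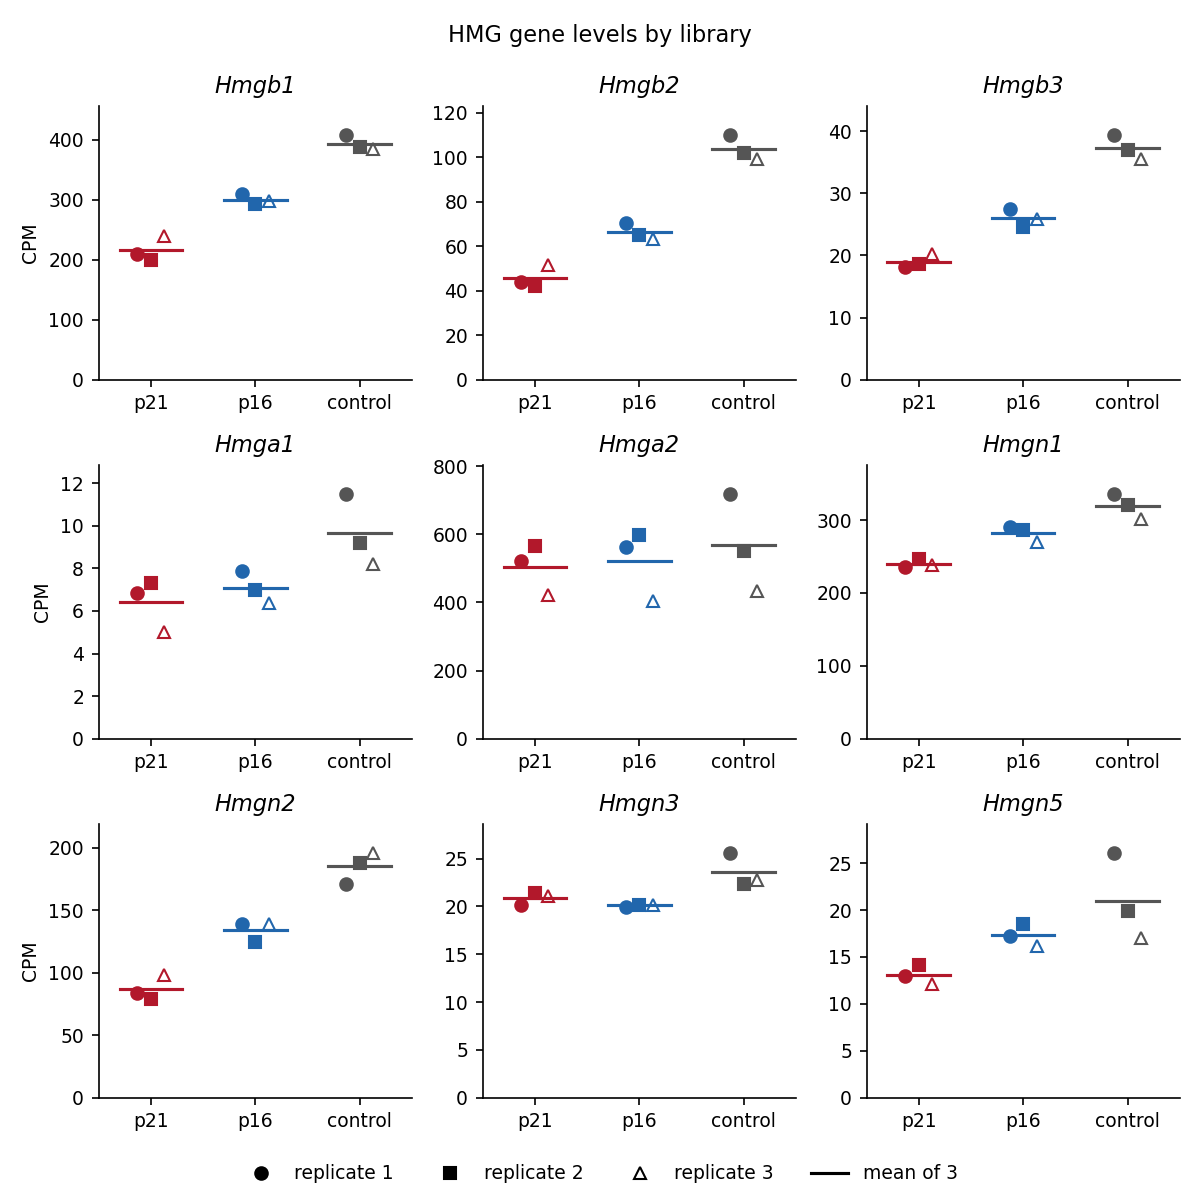
Each panel shows the CPM of 1 HMG gene in the 3 p21, 3 p16 and 3 control libraries, with the mean of each group as a line and the replicate number as the symbol. The p21, p16 and control libraries lie apart and in that order for Hmgb1, Hmgb2, Hmgb3, Hmgn1 and Hmgn2, and the groups overlap for Hmga2.

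Of the HMGA pair, Hmga2 passed in no comparison and Hmga1 in p21 against control. Hmga2, an embryonic chromatin protein whose RNA is a target of the let-7 microRNAs, had 522, 567 and 423 CPM in p21 cells, 562, 599 and 403 CPM in p16 cells and 719, 551 and 435 CPM in control cells. Replicate 3 was the lowest library in every group, and the groups overlapped in all 3 comparisons. The log2 fold changes were -0.17 ± 0.196 for p21 against control (95% interval -0.61 to 0.26, adjusted p = 0.509), -0.13 ± 0.196 for p16 against control (-0.56 to 0.31, adjusted p = 0.754) and -0.05 ± 0.196 for p21 against p16 (-0.49 to 0.39, adjusted p = 0.9). The interval for p21 against control reached -0.61, while the HMGB values in that comparison were -0.86 to -1.18. Hmga2 did not pass in any comparison under any of the 17 alternatives, where its lowest adjusted p was 0.128.

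Hmga1, the relative of Hmga2 found in many proliferating cells, had the lowest level per kilobase of exon. Its CPM were 6.86, 7.33 and 5.01 in p21 cells, 7.88, 6.98 and 6.38 in p16 cells and 11.5, 9.2 and 8.21 in control cells. Every p21 and p16 library lay below every control library, and the p21 and p16 libraries overlapped. The p21 change against control was -0.59 ± 0.167 (adjusted p = 0.0188), which missed the threshold without p21 replicate 3 (adjusted p = 0.0503) or without control replicate 1 (adjusted p = 0.0597). For p16 against control it was -0.45 ± 0.166 (adjusted p = 0.134), and adjusted p = 0.0151 with the replicate number as a block. Between p21 and p16 the value was -0.14 ± 0.168 (95% interval -0.52 to 0.23, adjusted p = 0.62). Of the 50-base stretches of the longest coding Hmga1 transcript, 69.1% also occur in a transcript of another gene. How reads with several matches were counted is not given in the sources used here, so the Hmga1 level is uncertain.

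The HMGN genes had p21 log2 fold changes against control from -1.09 to -0.18, all past the threshold. Hmgn2, which binds nucleosomes beside Hmgn1, had 83.7, 79.2 and 98.5 CPM in p21 cells, 139, 125 and 139 CPM in p16 cells and 171, 188 and 196 CPM in control cells. No library of a group reached into another group. Hmgn2 was 2.13-fold lower in p21 than in control cells (-1.09 ± 0.087, adjusted p = 2.43e-05) and 1.54-fold lower in p21 than in p16 cells (-0.62 ± 0.0865, adjusted p = 0.00266). For p16 against control the value was -0.46 ± 0.0861 (adjusted p = 0.0167). That call did not hold without p16 replicate 1 (adjusted p = 0.0542), p16 replicate 2 (0.079) or control replicate 2 (0.0598).

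Hmgn1, the highest HMGN gene per kilobase of exon, had 236, 246 and 238 CPM in p21 cells, 290, 286 and 270 CPM in p16 cells and 336, 321 and 301 CPM in control cells. The groups did not overlap, and the p16 libraries lay between the others. The change in p21 against control cells was -0.41 ± 0.0515 (1.33-fold lower, adjusted p = 2.72e-04). The p16 value against control was -0.18 ± 0.0514 (adjusted p = 0.0659), and with the replicate block adjusted p = 0.0198. Against p16 cells, p21 cells were lower by -0.23 ± 0.0515 (adjusted p = 0.019), which did not hold without p21 replicate 1 (adjusted p = 0.0891), p16 replicate 1 (0.0768) or p16 replicate 2 (0.067).

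The same comparison was made within the HMGN pair. Hmgn2 counts were 0.355, 0.322 and 0.413 of Hmgn1 counts in p21 cells, 0.478, 0.438 and 0.515 in p16 cells and 0.51, 0.588 and 0.651 in control cells. The p21 ratios were below all others, and the p16 and control ratios overlapped. The mean log2 ratio was lower by 0.68 in p21 than in control cells (exact permutation p = 0.1), by 0.28 in p16 than in control cells (exact p = 0.2) and by 0.40 in p21 than in p16 cells (exact p = 0.1).

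Hmgn5, an X-linked HMGN gene whose product has a long acidic tail, had 13.0, 14.1 and 12.1 CPM in p21 cells, 17.2, 18.5 and 16.2 CPM in p16 cells and 26.1, 19.9 and 17.0 CPM in control cells. The p21 libraries were below all others, the p16 and control libraries overlapped, and replicate 3 was lowest in each group. It was 1.61-fold lower in p21 than in control cells (-0.68 ± 0.139, adjusted p = 0.0038), and -0.76 with replicates 1 and 2 alone (adjusted p = 0.00213). For p16 against control the value was -0.28 ± 0.138 (95% interval -0.59 to 0.03, adjusted p = 0.25). For p21 against p16 it was -0.41 ± 0.139 (adjusted p = 0.0865), with adjusted p = 0.0174 under the replicate block, 0.0162 without control replicate 1 and 0.0371 without control replicate 3.

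Hmgn3, which is known for roles in hormone-producing and eye cells, had the smallest p21 change of the HMGN genes. It had 20.1, 21.4 and 21.1 CPM in p21 cells, 19.9, 20.2 and 20.2 CPM in p16 cells and 25.6, 22.3 and 22.8 CPM in control cells. The control libraries were highest, and the p21 and p16 libraries overlapped. The p21 change against control, -0.18 ± 0.0617, passed narrowly (adjusted p = 0.0463) and was lost in 13 of the 17 alternatives, among them those that left out any single p21 or p16 library, or control replicate 1 or 3 (adjusted p = 0.0565 to 0.172). The p16 value of -0.23 ± 0.0617 missed the threshold (adjusted p = 0.0533), and with the replicate block adjusted p = 0.0379. For p21 against p16 the value was 0.05 ± 0.062 (95% interval -0.08 to 0.19, adjusted p = 0.606).

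**Figure D2:**
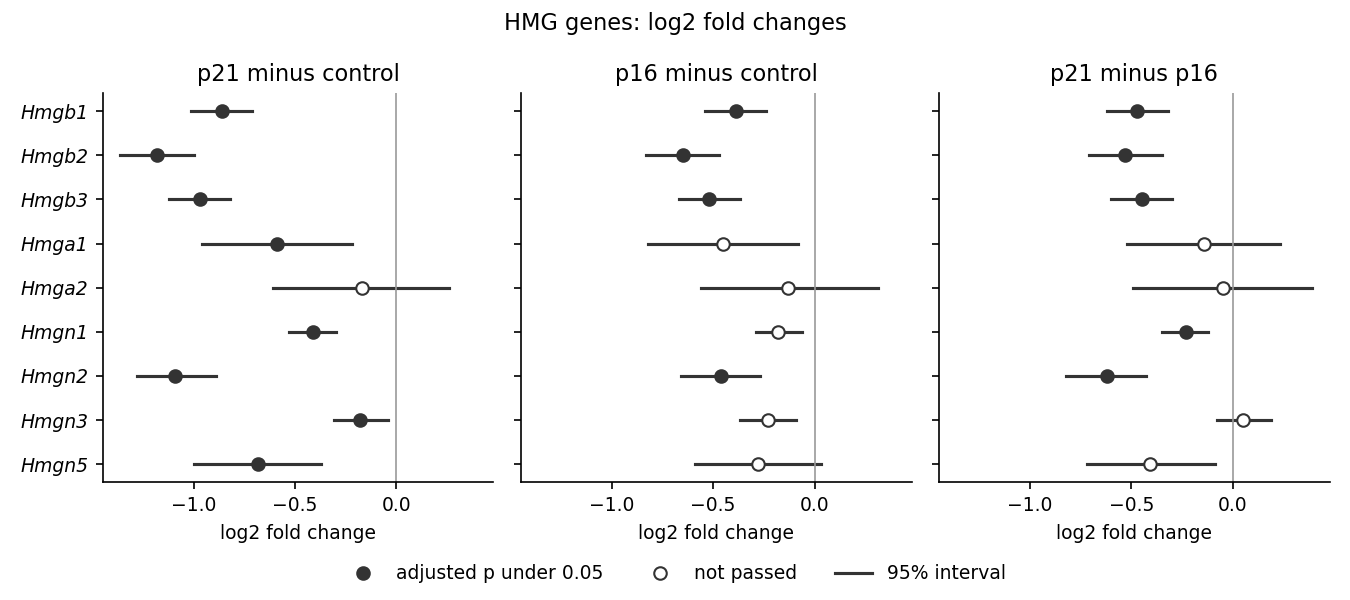
Points are log2 fold changes of the 9 HMG genes in 3 comparisons, bars are 95% intervals, and filled points have an adjusted p under 0.05. Hmgb2 and Hmgn2 lie farthest below 0 in p21 against control (-1.18 and -1.09), and every interval of Hmga2 crosses 0.

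Counted together, 8 of the 9 genes were lower in p21 than in control cells and none was higher. Over all tested genes, 20.7% were called lower and 19.3% higher in that comparison. In p16 against control 4 of 9 were lower (Hmgb1, Hmgb2, Hmgb3 and Hmgn2) and none higher, against 3.65% lower and 3.57% higher of all tested genes. With library totals in place of TMM scaling, 6 HMG genes were lower. Of all genes, 683 were then called lower and 444 higher in this comparison, against 532 and 520 with TMM. The HMG count was 2 without p16 replicate 2, when Hmgb2 and Hmgb3 passed and 66 of 14802 genes were lower. It was 7 with the replicate block, when 1221 of 14572 genes were lower. In p21 against p16, which tests whether these libraries differ, 5 of 9 were lower (Hmgb1, Hmgb2, Hmgb3, Hmgn1 and Hmgn2) and none higher, against 6.64% and 6.19% of all genes. With the block the HMG count was 6, when 1781 of all genes were lower. With replicates 1 and 2 alone the HMG counts were 7, 4 and 5 in the 3 comparisons, all lower. Of all genes, 2812, 253 and 916 were lower in that setting. The median log2 fold change in p21 against control cells was -0.97 for the HMGB genes, -0.38 for the HMGA genes and -0.55 for the HMGN genes, and in p16 against control cells it was -0.52, -0.29 and -0.25 for these families. The median of all tested genes was -0.01 in both comparisons. The comparisons with control share the control libraries, and the comparisons with p16 share the p16 libraries, so the counts are not separate evidence.

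Per length the 9 genes spanned a wide range, as the plot of CPM per kilobase of exon shows. Hmgn1 stood at 74.5 ± 1.65 CPM per kb in p21 cells, 87.6 ± 3.33 in p16 cells and 99.1 ± 5.44 in control cells, and Hmga2 at 74.4 ± 10.9, 76.9 ± 15.4 and 83.9 ± 21.1 in the same groups. Those levels overlapped between the genes in each group, and the Hmga2 libraries also overlapped those of Hmgb1 in p16 and control cells. Below them came Hmgb1 (43.1 ± 4.1 in p21 cells, 59.7 ± 1.88 in p16 cells, 78.3 ± 2.63 in control cells), Hmgn2 (28.5 ± 3.3, 43.9 ± 2.54 and 60.5 ± 4.14 in that order of groups) and Hmgb2 (15.3 ± 1.68, 22.1 ± 1.26 and 34.6 ± 1.87). In p21 cells Hmgn3 followed at 11.2 ± 0.393, above Hmgb3 at 8.5 ± 0.534, whereas in control cells Hmgb3 (16.7 ± 0.887) lay above Hmgn3 (12.6 ± 0.936), and these ranges did not overlap. Hmgn5 stood at 6.75 ± 0.514 in p21 cells, 8.95 ± 0.601 in p16 cells and 10.9 ± 2.41 in control cells, where it overlapped Hmgn3. Hmga1 came last at 3.01 ± 0.578, 3.33 ± 0.356 and 4.54 ± 0.804 in those groups. The order of the leading 4 depended on the length used: per kilobase of the longest transcript, control cells had 149 for Hmga2, 147 for Hmgn1, 146 for Hmgn2 and 139 for Hmgb1.

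**Figure D3:**
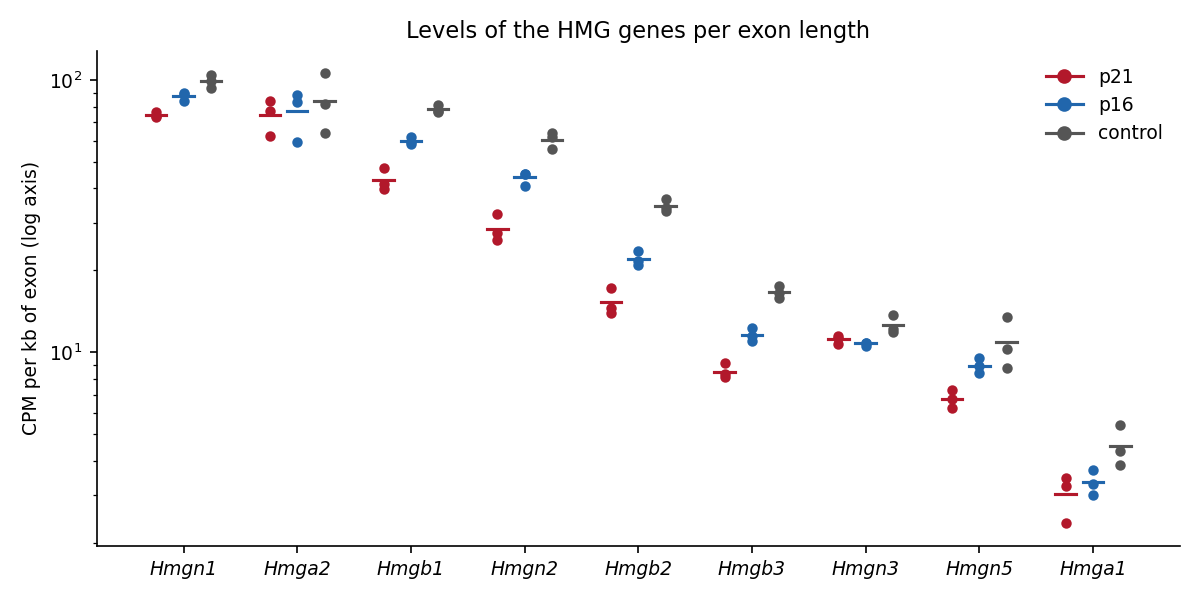
CPM per kilobase of exon (log axis) of the 9 HMG genes in p21, p16 and control libraries, each dot a library and each line the mean of 3. Hmgn1 and Hmga2 lie highest in p21 cells (74.5 and 74.4) and Hmga1 lies lowest in all groups.

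The genes sit on 8 chromosomes (GRCm38, that is mm10, annotated by GENCODE M21), and all are protein coding. Hmgb1 lies at chr5:149046702-149184489 (minus strand), Hmgb2 at chr8:57511907-57515999 (plus), Hmgb3 at chrX:71555918-71560676 (plus), Hmga1 at chr17:27556497-27563674 (plus) and Hmga2 at chr10:120361275-120476469 (minus). Hmgn1 lies at chr16:96120618-96127729, Hmgn2 at chr4:133964738-133968650, Hmgn3 at chr9:83109948-83146685 and Hmgn5 at chrX:109004534-109013404, all on the minus strand. Many have processed copies elsewhere in the genome. Of 50-base stretches of the longest coding transcript, 67.1% for Hmgn2, 36.8% for Hmgb1, 34.2% for Hmgb3, 21.9% for Hmgb2, 18.6% for Hmgn5, 6.54% for Hmgn1, 0.877% for Hmga2 and none for Hmgn3 also occur in a transcript of another gene. Of the 179 other genes that share such stretches, 4 are in the count table and 3 have reads, so the levels of Hmgn2 and the HMGB genes could be affected by how the counting treated reads with several matches. Hmga2-ps1, a copy of Hmga2 with a row of its own, had 432 to 643 counts in p21 cells, 439 to 609 in p16 cells and 395 to 869 in control cells, against Hmga2 counts of 24137 to 38795 in p21 cells, 27694 to 40817 in p16 cells and 31190 to 55113 in control cells.

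Among genes outside the family, the patterns most like those of the HMG genes over the 9 libraries were found by the root mean square difference of log2 CPM after centring each gene. Nearest to Hmgb1 were Pold3, a DNA polymerase delta subunit (0.0512), Usp1, a deubiquitinase of DNA repair (0.0548), and Gpsm2, a spindle orientation protein (0.0565). Nearest to Hmgb2 were Ccna2, the S and G2 phase cyclin A2 (0.0893), Uhrf1, which carries DNA methylation through replication (0.0926), and Hirip3 (0.0949). Lig1, the replicative DNA ligase, and Prim1, a primase subunit, were nearest to Hmgb3 (0.0652 for each). Hmgn5 had Dnajc9 (0.0756), the flap endonuclease gene Fen1 (0.0767) and Haus4 (0.0771). Hmgn2 had Fam131b (0.0634), the glutamine transporter gene Slc1a5 (0.0685) and the centromere gene Cenpm (0.0744). Hmgn1 had Cdca4 (0.022), Pelp1 (0.0282) and Hnrnpab (0.0292), Hmgn3 had the mitochondrial ribosomal gene Mrps24 (0.0378), Mbd3 (0.0396) and Fam204a (0.0412), and Hmga1 had Ezr (0.0704), Klf5 (0.0765) and the replication licensing gene Cdt1 (0.091). Within the family Hmgb1 and Hmgb3 were closest (0.0684) and Hmga2 and Hmgn2 farthest apart (0.509). These distances are descriptions over 10437 genes, and a gene with a small range has small distances.

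Proliferation markers moved in the same direction as the HMGB genes, Hmgn1 and Hmgn2. Of 16 tested, 15 were lower in p21 than in control cells (median log2 fold change -1.14, against -0.01 for all genes) and 11 were lower in p16 than in control cells (median -0.39), where 20.7% and 3.65% of all genes were lower. The p16 count was 3 without p16 replicate 1, 2 or 3 and 4 without control replicate 2. Of all genes, 92, 66, 163 and 160 were lower in those settings. Mki67, the Ki-67 gene, had a log2 change of -1.34 ± 0.0897 in p21 against control cells (adjusted p = 1.35e-05), the mitotic cyclin gene Ccnb1 -1.21 ± 0.0773 (1.14e-05), Ccna2 -1.19 ± 0.0739 (1.10e-05) and the spindle motor gene Kif11 -1.18 ± 0.0549 (6.52e-06). Rrm2, a ribonucleotide reductase subunit, had -0.44 ± 0.233 (adjusted p = 0.161). The summed level of the list was 902 to 1020 CPM in p21 cells, 1443 to 1534 CPM in p16 cells and 1820 to 2197 CPM in control cells, in the same order as the HMGB genes. Skeletal muscle genes ran in the opposite order: Acta1 and Des, the only 2 of 5 tested, were higher in p21 and in p16 than in control cells. Of all genes, 19.3% and 3.57% were higher in these comparisons. The muscle list summed to 494 to 589 CPM in p21 cells, 343 to 367 CPM in p16 cells and 180 to 217 CPM in control cells. Myod1, Myog and Myh3 had at most 4 counts in a library. The part of either list in the HMG results was not tested.

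Other HMG-box proteins, which share the DNA-binding fold of HMGB, were mostly lower or did not pass. Of 20 listed, 17 were tested, and in p21 against control cells 10 were lower, none higher and 7 did not pass (median -0.25, range -0.60 to 0.19), against 20.7% of all genes lower. Ubtf, the upstream binding factor of ribosomal DNA, had -0.59 ± 0.0497 (adjusted p = 3.14e-05). Pbrm1, a subunit of the PBAF remodelling complex, had -0.43 ± 0.049 (1.72e-04), Hmgxb4 -0.32 ± 0.0475 (7.34e-04) and Ssrp1, a subunit of the FACT histone chaperone, -0.48 ± 0.0791 (0.00131). Tox4 had 61.82 ± 1.3 CPM in p21 cells and 61.93 ± 0.537 CPM in control cells (adjusted p = 0.966), and Hmgxb3 had 60.08 ± 0.711 CPM in p21 cells and 60.24 ± 3.79 CPM in control cells (adjusted p = 0.961). In p16 against control cells 1 of 17, Ubtf, was lower (median -0.13), against 3.65% of all genes, and it did not pass without p16 replicate 1 (adjusted p = 0.0538) or 2 (0.0608). The count was 2 without control replicate 3 and 3 with the replicate block, when 353 and 1221 of all genes were lower. In p21 against p16 cells 3 of 17 were lower (median -0.10), against 6.64% of all genes, and 1 without p21 replicate 1. Hmgb4, a germ cell HMGB gene, had no read in any library.

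Linker histones, which compete with HMGN proteins for the nucleosome, did not move in a single direction. Of 7 tested in p21 against control cells, 3 were higher, 2 lower and 2 did not pass, against 19.3% of all genes higher and 20.7% lower. Hist1h1c, encoding H1.2, had 48.85 ± 3.78 CPM in p21 cells, 34.52 ± 1.25 CPM in p16 cells and 24.06 ± 1.22 CPM in control cells (SD, n = 3), so its groups ran in the opposite order to those of Hmgn2. Its log2 change was 1.02 ± 0.0654 in p21 against control cells (adjusted p = 1.14e-05) and 0.52 ± 0.0652 in p16 against control cells (adjusted p = 0.00523). Hist1h1d was also higher in p21 than in control cells, by 1.42 ± 0.261 (adjusted p = 0.00223), at a level of 1.883 ± 0.0848 CPM in p21 cells. H1f0, the H1.0 gene known from resting cells, was lower in p21 cells by -0.70 ± 0.116 (adjusted p = 0.00134), and H1fx by -0.69 ± 0.0867 (2.86e-04). Hist1h1a and Hist1h1b averaged at most 0.353 CPM in every group and did not pass (adjusted p = 0.515 and 0.907). Replication-dependent histone messages mostly lack a poly(A) tail and have near-identical copies, so their counts are uncertain.

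Other non-histone chromatin proteins moved in the same direction as the HMGB genes, Hmgn1 and Hmgn2. Of 18 tested, 17 were lower and none higher in p21 than in control cells (median -0.57), 9 were lower in p16 than in control cells (median -0.24) and 13 were lower in p21 than in p16 cells (median -0.32). Of all genes, 20.7%, 3.65% and 6.64% were lower in these comparisons. The p16 against control count was 3 without p16 replicate 1 or 2, 2 without p16 replicate 3, 5 without control replicate 2 and 15 with the replicate block. Of all genes, 92, 66, 163, 160 and 1221 were lower in those settings. The p21 against p16 count was 6 without p21 replicate 1 and 7 without p16 replicate 1 or 2, when 316, 454 and 470 of all genes were lower. Lbr, the lamin B receptor, had -0.83 ± 0.0764 in p21 against control cells (adjusted p = 5.11e-05). Dek, a DNA-bending protein, had -0.76 ± 0.0582 (2.03e-05), Anp32e, a chaperone that removes H2A.Z, -0.74 ± 0.0565 (2.08e-05) and Nucks1 -0.61 ± 0.0512 (3.14e-05).

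Genes of the axis around Hmga2, in which Lin28 proteins block let-7 and let-7 lowers Hmga2 and other fetal messages, were mixed. Of 17 tested, 2 were higher and 10 lower in p21 than in control cells (median -0.25), against 19.3% and 20.7% of all genes, and 5 were lower without p21 replicate 1. In p16 against control cells 2 were higher and none lower, against 3.57% and 3.65% of all genes. 1 of those 2 was E2f6, which did not pass without p16 replicate 1 (adjusted p = 0.0657), 2 (0.119) or 3 (0.0713) or control replicate 2 (0.0901) or 3 (0.0802). With the replicate block 2 were lower. Ccnd2, cyclin D2, had 1264 ± 69.3 CPM in p21 cells, 1111 ± 66.7 CPM in p16 cells and 769.3 ± 47.5 CPM in control cells, a log2 change of 0.72 ± 0.0655 in p21 against control cells (adjusted p = 4.92e-05). E2f6 was higher in p21 cells by 0.58 ± 0.0612 (1.11e-04). Trim71 was lower by -1.06 ± 0.158 (7.13e-04) and Plagl2 by -0.45 ± 0.0627 (4.71e-04). Igf2bp3, a let-7 target that binds RNA, had -0.01 ± 0.0687 (adjusted p = 0.908), and Cdc25a had -0.26 ± 0.103 (adjusted p = 0.0745). Lin28a had no read in any library and Lin28b had 2 to 19 counts.

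Receptors and partners that HMGB1 is known to meet outside the cell, with their adaptors, were mixed too. Of 12 tested, 5 were higher and 2 lower in p21 than in control cells (median 0.21), against 19.3% and 20.7% of all genes. Without p21 replicate 1 the counts were 3 and 1, and 3 were higher without p21 replicate 2, without control replicate 2 or with library totals. In p16 against control cells Thbd and Havcr2 were higher and none lower, against 3.57% and 3.65% of all genes, but neither passed without p16 replicate 1, 2 or 3 or control replicate 2 (adjusted p = 0.0509 to 0.151), and Havcr2 also missed without any single p21 library or control replicate 3. With the replicate block 2 were lower. Thbd, thrombomodulin, which binds HMGB1, was higher in p21 cells by 0.59 ± 0.102 (adjusted p = 0.00166), and Havcr2, the TIM-3 gene, by 0.94 ± 0.186 (0.00324). Il1r1, the interleukin-1 receptor, was lower by -0.72 ± 0.181 (adjusted p = 0.0109), and Myd88, the shared adaptor of Toll-like and interleukin-1 receptors, by -0.28 ± 0.0705 (0.0115, and 0.0555 without p21 replicate 1). Cxcl12, a chemokine that binds HMGB1, had 311.9 ± 124 CPM in p21 cells and 460.9 ± 184 CPM in control cells and did not pass (adjusted p = 0.242), nor did Cd24a (0.274). Macrophage markers were counted as well. Of 11 tested, 8 were higher and none lower in p21 than in control cells (median 1.49, against 0.21 for the receptor list). That count was 4 without p21 replicate 3 or control replicate 1, and 5 without p21 replicate 2 or control replicate 2. None was called in p16 against control cells (median -0.23, against 0.07 for the receptor list). The summed level of the macrophage markers was 24.7 to 45 CPM in p21 cells, 11.1 to 14.6 CPM in p16 cells and 12.4 to 15.9 CPM in control cells. None of the 11 was without reads. Lyz2 had 17.31 ± 5.53, 4.113 ± 1.01 and 3.883 ± 0.757 CPM in p21, p16 and control cells, Ptprc 0.7464 ± 0.156, 0.3201 ± 0.108 and 0.247 ± 0.0695 CPM in those groups. Cd14 had 2.677 ± 0.392, 2.656 ± 0.671 and 2.839 ± 0.393 CPM and Cd68 2.61 ± 0.653, 1.989 ± 0.144 and 2.273 ± 0.13 CPM. Neither passed in p21 against control cells (adjusted p = 0.756 for Cd14 and 0.412 for Cd68). The part of the macrophage markers in the receptor values was not tested.

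**Figure D4:**
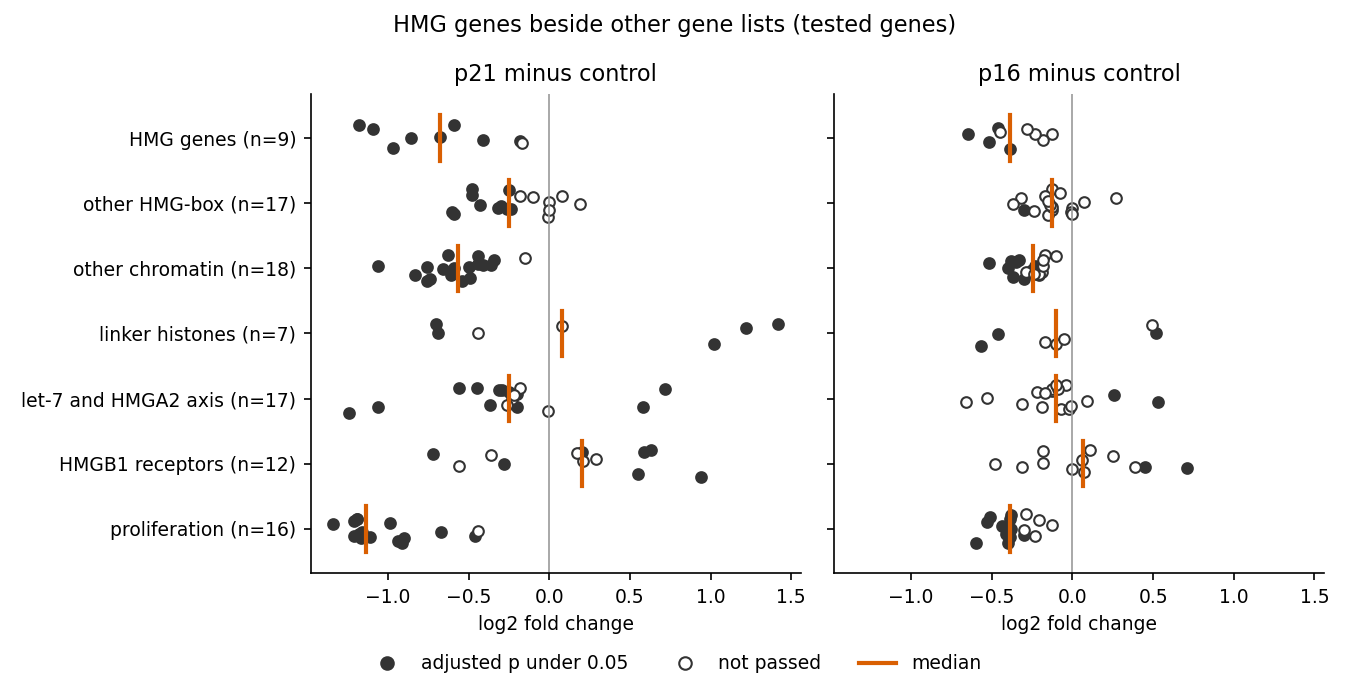
Log2 fold changes of the tested genes of each list in p21 against control (left) and p16 against control (right), with filled points for an adjusted p under 0.05 and an orange line for the median. The proliferation list (medians -1.14 and -0.39) and the other chromatin list (-0.57 and -0.24) lie on the side of the HMG genes, and linker histones lie on both sides of 0.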

How the data were processed

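Libraries of 9 RNA samples were prepared with a TruSeq v2 kit, per the labels' protocols. The authors deposited a table of raw read counts per gene symbol. Tools named for it are featureCounts 1.4.6, Subread, Bowtie2 2.2.6 and TopHat2 2.0.14, with build mm10, per the submitters' processing notes. Annotation, strand setting and treatment of reads with several matches: not given in the sources used here.

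Groups and replicate numbers came from the sample titles. Counts were tested with edgeR 4.0.16 in R 4.3.3 (filterByExpr, TMM, a single quasi-likelihood fit of 3 group means to 9 libraries, Benjamini-Hochberg adjustment over 14572 genes, threshold 0.05), after a check on simulated data. The standard error of a log2 fold change is its size over the square root of F, and CPM follow TMM. Ratios were tested by exact permutation in scipy 1.17.1. Libraries held 56.9 to 76.1 M counts, and replicates differed beyond sampling noise, with chi-square per degree of freedom of 10.37 to 101.2.

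The members and gene lists were chosen with earlier results of these data known. The text names all 9 members, Cdkn1a and Cdkn2a, up to 4 called members of each list by lowest adjusted p in p21 against control, up to 2 that did not pass by highest mean CPM, and the 3 genes nearest in pattern to each called member among those whose mean log2 CPM reached 2 (prior count 2). Lists were described by counts and medians, and 1 gene that this rule names is not reported here.

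Same-numbered libraries were compared by their deviations from the group mean, which correlated at 0.16, 0.29 and 0.48 for p21 and p16, at 0.25, 0.11 and 0.55 for p16 and control, and at 0.18, 0.03 and 0.49 for p21 and control. The numbers were taken to pair p16 with both other groups on these values alone, since each was over 0.1. The p21 and control values were not all over it. Differently numbered libraries could correlate more: p16 replicate 2 had 0.3 with control replicate 1, and p21 replicate 2 had 0.36 with it. Between p21 and p16, replicates 1 and 2 crossed gave 0.1 and 0.14. Replicate 3 correlated at 0.48 to 0.55 with its own number and negatively with the others. The check therefore does not settle the pairing, least of all for replicates 1 and 2. Alternatives were RLE size factors, library totals, no filter, only the groups compared, a replicate block, a term for replicate 3, replicates 1 and 2 alone, each library left out, and DESeq2 1.42.0.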

Additional observations from a re-analysis of the deposited data

Results flagged for a closer look

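Results are given here because the p21 and p16 libraries differed by the p21 minus p16 contrast of edgeR's quasi-likelihood fit. If the p16 cells were handled apart, that cannot be told apart from p16. All values are log2 fold changes of p21 minus p16, with 3 libraries a group.

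Among the HMG genes these were Hmgn2 (-0.62), Hmgb2 (-0.53), Hmgb1 (-0.47), Hmgb3 (-0.45) and Hmgn1 (-0.23), all lower in p21 cells. Of these, Hmgn1 did not pass without p21 replicate 1 (adjusted p = 0.0891), p16 replicate 1 (0.0768) or p16 replicate 2 (0.067).

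The proliferation genes Ccnb1 (-0.83), Kif11 (-0.77), Mki67 (-0.74) and Ccna2 (-0.66) were lower in p21 than in p16 cells. So were the chromatin genes Lbr (-0.43), Nucks1 (-0.42), Dek (-0.41) and Anp32e (-0.37), and the HMG-box genes Ubtf (-0.29), Pbrm1 (-0.27) and Hmgxb4 (-0.19). Plagl2 (-0.33) was lower and E2f6 (0.32) higher. The linker histone genes Hist1h1d (0.93) and Hist1h1c (0.50) were higher in p21 cells. The macrophage markers C1qa (2.15), Lyz2 (2.07), Tyrobp (1.93) and Ptprc (1.21) and the muscle genes Acta1 (0.80) and Des (0.45) were higher as well.

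Leaving out a library ended some of these calls. Without p21 replicate 1 the adjusted p was 0.0511 for Pbrm1, 0.0548 for Plagl2, 0.0773 for Hmgxb4, 0.118 for Ptprc, 0.122 for Hist1h1d and 0.127 for Des. Without p21 replicate 2 it was 0.109 for Hmgxb4, 0.113 for Hist1h1d, 0.0644 for Ptprc and 0.0506 for Des. Without p21 replicate 3 it was 0.0555 for Hmgxb4, 0.0678 for Hist1h1d and 0.1 for Ptprc. Without p16 replicate 1 it was 0.112 for Hmgxb4, 0.134 for Hist1h1d, 0.133 for Ptprc, 0.0793 for Des and 0.0502 for C1qa. Without p16 replicate 2 it was 0.0608 for Hmgxb4, 0.127 for Hist1h1d, 0.0851 for Des, 0.0526 for Tyrobp and 0.0514 for C1qa. Without p16 replicate 3 it was 0.0689 for Hmgxb4, 0.116 for Ptprc, 0.0898 for Des and 0.0517 for Tyrobp. Without control replicate 2 it was 0.0667 for Hist1h1d and 0.0635 for Ptprc.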

How the results depend on the processing

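Of the HMG gene values under the 17 alternatives, 420 kept their side of the threshold, 22 lost a call and 17 gained one; the cause was not tested. No called value changed sign, but 7 values that did not pass did, 6 of them of Hmga2 (up to 0.03 for p21 against control, 0.08 for p16 against control and 0.06 for p21 against p16) and 1 of Hmga1 (to 0.00 for p21 against p16). For p21 against control, 6 to 8 HMG genes passed when a library was left out, among 4224 to 5788 genes in all. For p16 against control, 4 HMG genes passed among 1052, 2 to 5 among 222 to 949 when a library was left out, and 7 with the replicate block (2473 genes) or a term for replicate 3 (2645). All genes called in this comparison were 555 with only the groups compared, 593 with replicates 1 and 2 alone and 1808 with DESeq2. For p21 against p16, 5 HMG genes passed among 1870, 4 to 6 among 600 to 2464 when a library was left out, and 6 with the block (3496) or the replicate 3 term (3622). Without p16 replicate 1, 2 or 3 or control replicate 2, the p16 against control count was 284, 222, 425 or 375; without p21 replicate 1 or 2 or p16 replicate 1, 2 or 3, the p21 against p16 count was 600, 922, 789, 875 or 959. The replicate block changed the calls of Hmga1, Hmgn1 and Hmgn3 in p16 against control and of Hmgn5 in p21 against p16, and of no other HMG gene. Scaling moved the median of all genes to -0.046 at most. Counts per library were at least 286 for each HMG gene, the lowest being Hmga1 in p21 replicate 3.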
